A study of Rattus norvegicus with 9 samples.

Results

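MiR-128 was followed across the 9 small RNA libraries of the series. Its members are the rows of the table whose names start with rno-miR-128-, which are 3 of the 633 mature miRNAs listed. They are rno-miR-128-3p, rno-miR-128-1-5p and rno-miR-128-2-5p, and all 3 had enough counts to be tested. The libraries came from dissected hippocampus of Sprague-Dawley rats, labelled as post natal day 21 and described as aged 5 weeks when treatment began, with 3 libraries in each of 3 groups. VEH rats received saline for 14 days and then for 7 more days. MK-801 rats received MK-801, which blocks NMDA receptors for glutamate and serves as a drug model of schizophrenia, at 0.2 mg/kg a day for 14 days and then saline for 7 days. MK-801+CLO rats had the same MK-801 days and then 7 days of the atypical antipsychotic clozapine at 10 mg/kg. No group received clozapine without MK-801. Each group had 10 rats by the labels, which tie no library to a rat or a pool. P-values therefore measure only how far these libraries spread, and that spread may be technical.

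A miRNA is cut from a hairpin precursor as a duplex, and the strand that stays in the Argonaute protein guides it to matching messenger RNAs. Pairing rests mainly on the seed, bases 2 to 8 from the 5′ end. MiR-128 is enriched in brain and in neurons, where it is known to restrain neuronal excitability and motor activity. It comes from a pair of hairpins on different chromosomes that lie within protein-coding genes. In the RefSeq annotation of assembly GRCr8, Mir128-1 lies within R3hdm1 and Mir128-2 within Arpp21, each on the strand of that gene. Mir128-2 also lies within a further annotated gene, LOC120094269, which is not listed on the strand of the hairpin. Arpp21 encodes a phosphoprotein of dopamine-responsive neurons that binds RNA, and R3hdm1 encodes a related protein with an R3H domain.

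The hairpins are shown because they set what the counts can tell apart. In these RefSeq sequences (GRCr8), the 5p product, which comes first, and the 3p product are in capitals:
Mir128-1: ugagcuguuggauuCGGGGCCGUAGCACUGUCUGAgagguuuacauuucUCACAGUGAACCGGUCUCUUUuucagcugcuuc
Mir128-2: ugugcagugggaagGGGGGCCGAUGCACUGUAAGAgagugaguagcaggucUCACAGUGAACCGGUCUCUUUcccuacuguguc

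The 3p product is the same 21 bases in both, so a count of miR-128-3p cannot be assigned to either gene. The 5p products differ, and each belongs to 1 hairpin, miR-128-1-5p to the one in R3hdm1 and miR-128-2-5p to the one in Arpp21. They are alike at 16 of 21 positions, and from miR-128-1-5p to miR-128-2-5p, counted from the 5′ end, the differences are C1G, U9A, A10U, C18A and U19A.

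The mature sequences, with the seed in capitals, show which miRNAs share it. The miR-27 miRNAs are included because their seed overlaps that of miR-128-3p:
miR-128-3p: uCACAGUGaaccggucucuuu
miR-27a-3p: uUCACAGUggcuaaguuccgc
miR-27b-3p: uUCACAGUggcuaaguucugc
miR-128-1-5p: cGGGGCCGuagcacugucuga
miR-128-2-5p: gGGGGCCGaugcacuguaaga

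The 5p products have the same seed, GGGGCCG, which no other miRNA in the table had. The miR-128-3p seed, CACAGUG, was likewise at bases 2 to 8 of no other listed miRNA. It starts at base 3 in miR-27a-3p and miR-27b-3p, so that miR-128-3p and miR-27b-3p share a run of 8 bases that begins at base 1 of the former and at base 2 of the latter. It also starts at base 1 of miR-216a-3p, which was at 0.189 CPM on average. For all 5 miRNAs shown, the sequence in the deposited table was the RefSeq one.

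Levels are counts scaled to a library of 1000000 miRNA counts (CPM). The 3 members have the same length. MiR-128-3p was 13th of 633 in mean level, at 17556 CPM, between miR-143-3p at 18810 CPM and miR-125a-5p at 16078 CPM. Its rank ran from 9 in MK-801+CLO replicate 1 to 16 in MK-801 replicate 1. MiR-128-1-5p ranked 191st at 87.0 CPM and miR-128-2-5p 310th at 12.9 CPM. The 3p strand was the abundant one, and the 5p strands were scarce.

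MiR-128-3p stood at 16831, 18626 and 15208 CPM in VEH replicates 1, 2 and 3. It stood at 14241, 16344 and 15565 CPM in the MK-801 replicates. In the MK-801+CLO replicates it stood at 23553, 15518 and 22118 CPM. MK-801+CLO replicates 1 and 3 lay above all 7 other libraries, while replicate 2 lay among the MK-801 libraries and within the VEH range. The group means were 16888 ± 1710 CPM in VEH, 15383 ± 1063 CPM in MK-801 and 20396 ± 4285 CPM in MK-801+CLO (SD, n = 3 each). These are 1.69%, 1.54% and 2.04% of all miRNA counts.

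MiR-128-1-5p, from the hairpin in R3hdm1, was at 88.2, 73.0 and 80.9 CPM in VEH. It was at 85.3, 70.7 and 94.0 CPM in MK-801, and at 92.2, 85.5 and 113 CPM in MK-801+CLO. The 3 groups overlapped, and MK-801+CLO replicate 3 was the highest library. MiR-128-2-5p, from the hairpin in Arpp21, was at 10.9, 13.8 and 10.8 CPM in VEH. It was at 11.5, 11.2 and 11.9 CPM in MK-801, and at 15.1, 12.9 and 18 CPM in MK-801+CLO. Here every MK-801+CLO library lay above every MK-801 library, while VEH replicate 2 reached into the MK-801+CLO range in CPM. After TMM scaling, which the fits use, VEH replicate 2 was at 13.36 CPM, just under the lowest MK-801+CLO library at 13.41 CPM. The smallest count behind a value was 138 for miR-128-2-5p, in MK-801+CLO replicate 2, with a 95% Wilson interval of 11 to 15.3 CPM, which overlaps the 10.3 to 13.8 CPM of MK-801 replicate 3, the highest MK-801 library. Such intervals cover counting error only.

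**Figure D1:**
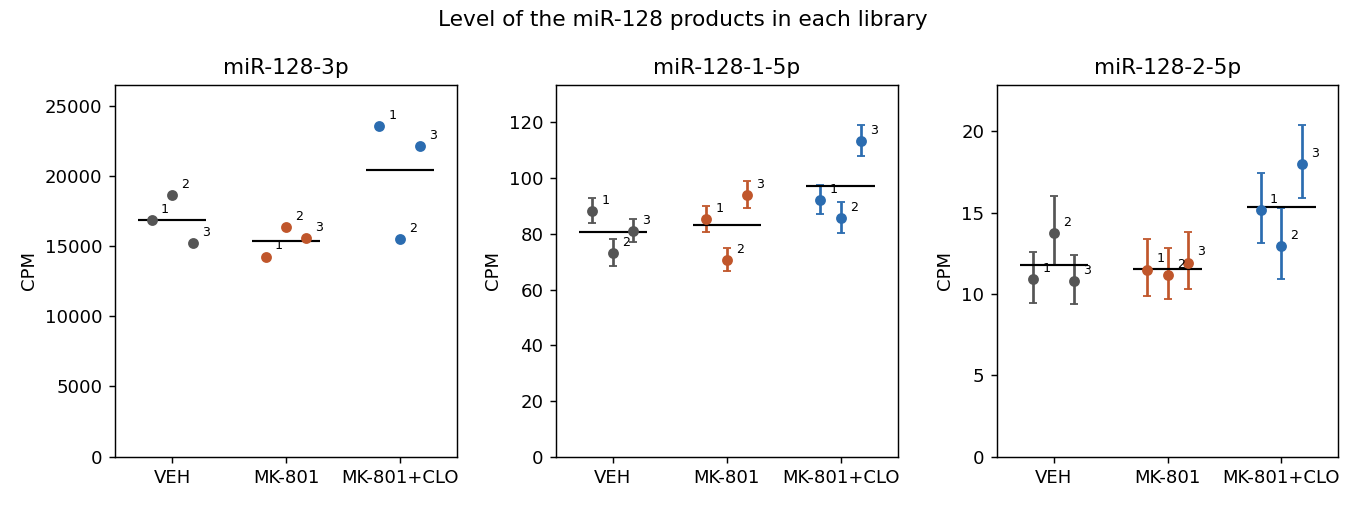
Level of miR-128-3p, miR-128-1-5p and miR-128-2-5p in CPM on linear axes from 0, by group. Each point is 1 library with its replicate number beside it, vertical bars are 95% Wilson intervals of counting error (smaller than the points for miR-128-3p) and horizontal lines are group means (n = 3). MK-801+CLO replicate 2 is the lowest of its group in each panel.

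Replicate 2 of MK-801+CLO was the lowest of its group for all 3 members. The order of the other libraries differed between members. MiR-128-3p was highest in MK-801+CLO replicate 1, and both 5p products were highest in replicate 3. In the VEH group, replicate 2 was the highest library for miR-128-3p and miR-128-2-5p and the lowest for miR-128-1-5p. In the MK-801 group, replicate 2 was the highest for miR-128-3p and the lowest for both 5p products. The coefficient of variation of miR-128-3p was 10.1% in VEH, 6.91% in MK-801 and 21.0% in MK-801+CLO, against about 0.2% from counting alone. Of 333 miRNAs at 10 CPM or more, the median in those groups was 9.16%, 9.79% and 12.8%, so the library spread of the whole table was widest in MK-801+CLO too. In that group 73 of the 333 (21.9%) varied at least as much as miR-128-3p.

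MK-801 was set against VEH to see what repeated NMDA receptor blockade leaves behind in the hippocampus. MiR-128-3p was at a log2 fold change of -0.11 ± 0.14 (SE; 95% interval -0.42 to 0.20, edgeR adjusted p = 0.866), which is 0.925-fold with an interval of 0.745 to 1.15. MiR-128-1-5p was at 0.07 ± 0.17 (interval -0.30 to 0.44) and miR-128-2-5p at -0.01 ± 0.16 (interval -0.36 to 0.35). Each interval spans 0. That of miR-128-2-5p runs from 0.779-fold to 1.27-fold, so changes within that range, and none at all, are compatible with these libraries. In edgeR 0 of 3 members passed an adjusted p of 0.05, and so did 0 of 469 tested miRNAs (0%). At an unadjusted p under 0.05 it was 0 of 3 members, against 24 of 469 miRNAs (5.12%). Every MK-801 library lay above every VEH library for 0 of 3 members, in CPM and after TMM scaling, against 28 of 469 miRNAs (5.97%) on each scale. DESeq2 and limma voom also called 0 of 3 members, and over all miRNAs DESeq2 called 1 and limma voom 0. The sign of miR-128-2-5p turned with upper-quartile scaling (0.09), and without VEH replicate 2 (0.11).

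Setting MK-801+CLO against MK-801 addressed what clozapine adds once the MK-801 days are over. The sample codes in the column headers all come earlier for MK-801+CLO than for the other groups. What the codes order is not given in the sources used, and a difference tied to that order could not be told apart from clozapine. All 3 members were at a positive log2 fold change. That of miR-128-3p was 0.44 ± 0.14 (SE; 95% interval 0.13 to 0.76), or 1.36-fold with an interval of 1.10 to 1.69. Its unadjusted p was 0.00996 and its adjusted p 0.519 in edgeR. The Arpp21 product miR-128-2-5p was at nearly the same value, 0.46 ± 0.16 (interval 0.10 to 0.81, edgeR unadjusted p = 0.0166, adjusted p = 0.526). The R3hdm1 product miR-128-1-5p was at 0.25 ± 0.17 (interval -0.11 to 0.62, edgeR adjusted p = 0.680).

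In that comparison edgeR called 0 of 3 members and 0 of 469 miRNAs (0%) at an adjusted p of 0.05. At an unadjusted p under 0.05 it was 2 of 3 members, both higher, against 39 of 469 miRNAs (8.32%). In CPM, every MK-801+CLO library was above every MK-801 library for 1 of 3 members, miR-128-2-5p, against 22 of 469 miRNAs (4.69%). For miR-128-3p the MK-801+CLO replicate 2 value of 15518 CPM lay below that of MK-801 replicate 2. After TMM scaling it was 16080 against 16044 CPM in the highest MK-801 library, so that 2 of 3 members did not overlap, against 33 of 469 miRNAs (7.04%) on that scale. DESeq2 called 2 miRNAs and limma voom 0, none of them a member, and the DESeq2 adjusted p of miR-128-3p was 0.225.

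A single library decided that call. Without MK-801+CLO replicate 2, miR-128-3p was at 0.60 with an edgeR adjusted p of 0.0487, past the threshold, and miR-128-2-5p was at 0.56 with an adjusted p of 0.207. That fit called 2 miRNAs over the whole table, and the other 8 fits with 1 library left out called 0. Without replicate 1 the value of miR-128-3p was 0.36, and without replicate 3 it was 0.35 with an adjusted p of 0.943. MiR-128-2-5p was at 0.30 without replicate 3, and miR-128-1-5p at 0.11 without that library and 0.12 without MK-801 replicate 2. Upper-quartile scaling moved the median of all miRNAs in this comparison from -0.004 to -0.116 and miR-128-3p to 0.32, so its distance from that median was 0.45 in the main scaling and 0.44 in the other.

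The contrast between MK-801+CLO and VEH spans the complete drug course, and its MK-801+CLO libraries are those of the comparison before. MiR-128-3p was at 0.33 ± 0.14 (SE; 95% interval 0.02 to 0.64), or 1.26-fold, with an edgeR unadjusted p of 0.0394 and an adjusted p of 0.288. MiR-128-2-5p was at 0.45 ± 0.16 (interval 0.10 to 0.80, edgeR adjusted p = 0.251). MiR-128-1-5p was at 0.33 ± 0.17 (interval -0.04 to 0.70, edgeR adjusted p = 0.379). At an adjusted p of 0.05 this again made 0 of 3 members and 0 of 469 miRNAs (0%). At an unadjusted p under 0.05 it was 2 of 3 members against 70 of 469 miRNAs (14.9%). In CPM 0 of 3 members had all MK-801+CLO libraries above all VEH libraries, against 28 of 469 miRNAs (5.97%). After TMM scaling this held for 2 of 3 members, both 5p products, against 44 of 469 miRNAs (9.38%). The gaps were small, 88.6 against 87.3 CPM for miR-128-1-5p and 13.41 against 13.36 CPM for miR-128-2-5p. DESeq2 called 16 miRNAs and limma voom 0, none of them a member. Without MK-801+CLO replicate 2, miR-128-3p was at 0.47 (adjusted p = 0.0507). MiR-128-1-5p was at 0.16 and miR-128-2-5p at 0.28 without replicate 3. MiR-128-3p was at 0.22 without that library.

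**Figure D2:**
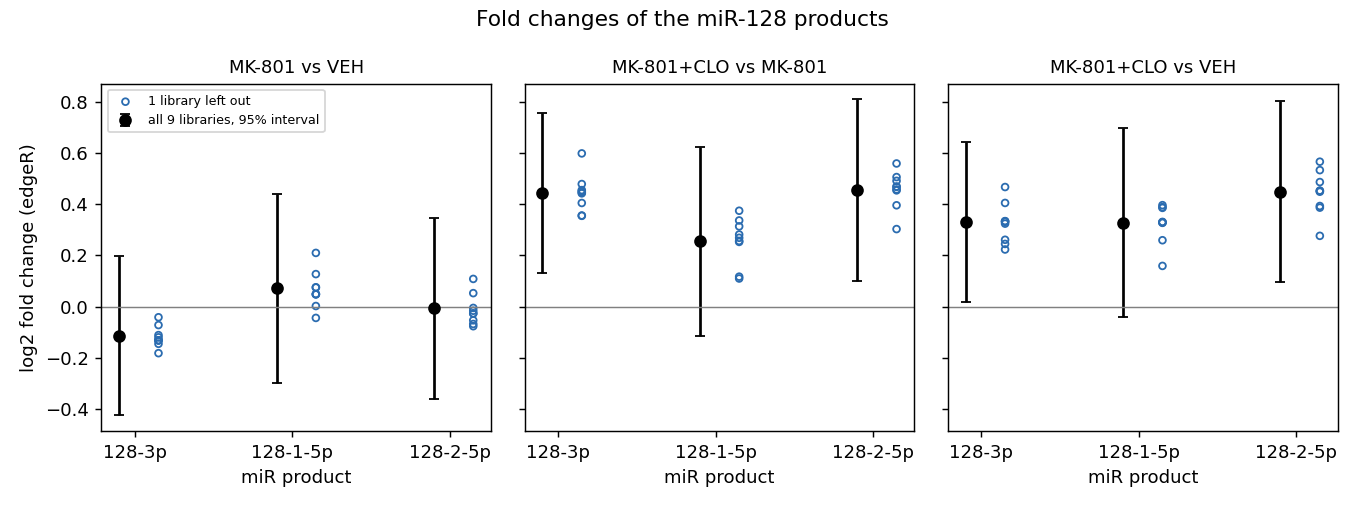
Log2 fold change of miR-128-3p, miR-128-1-5p and miR-128-2-5p in the 3 comparisons. Black points with bars are edgeR estimates with 95% intervals from all 9 libraries, and blue circles are the estimates with 1 library left out in turn. The values against MK-801 and against VEH in the MK-801+CLO panels stay above 0 in each of these fits.

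Ratios within a library need no scaling between libraries. The count ratio of miR-128-3p to miR-128-2-5p was 1544, 1353 and 1412 in VEH, 1239, 1465 and 1305 in MK-801, and 1556, 1199 and 1229 in MK-801+CLO. The 3 groups overlapped. The log2 difference between MK-801+CLO and MK-801 was -0.02 (two-sided exact permutation p = 0.800, where 0.10 is the smallest that 3 against 3 allows). It was -0.11 between MK-801 and VEH (exact permutation p = 0.400) and -0.12 between MK-801+CLO and VEH (exact permutation p = 0.5). Counting alone gives the miR-128-2-5p level a coefficient of variation of 6.40% to 8.51%, depending on the library.

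The ratio of miR-128-3p to miR-128-1-5p had group ranges of 188 to 255 in VEH, 166 to 231 in MK-801 and 181 to 256 in MK-801+CLO. The R3hdm1 product exceeded the Arpp21 product in all 9 libraries, by 5.30 to 8.09 times in VEH, 6.34 to 7.88 times in MK-801 and 6.09 to 6.61 times in MK-801+CLO. For these last ratios the log2 difference of MK-801+CLO from MK-801 was -0.18 (exact permutation p = 0.200). A ratio of 5p products need not be the ratio of the hairpins, and the share of miR-128-3p from each gene was not measured. Over the 5 ratios tested in 3 comparisons, 15 tests in all, the smallest Benjamini-Hochberg adjusted p was 0.682.

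Other neuron-enriched miRNAs give a reference, though in bulk tissue they need not come from the cells that hold miR-128. Of 17 listed, among them miR-124-3p, a marker of neuronal identity, and miR-138-5p of dendritic spines, all 17 were in the table and tested. In MK-801+CLO against MK-801, 9 lay higher and 8 lower, with a median log2 fold change of 0.03, beside -0.004 for all tested miRNAs. With upper-quartile scaling 7 lay higher. In edgeR 0 of 17 passed an adjusted p of 0.05. MiR-124-3p was at 0.15 ± 0.13. At an unadjusted p under 0.05 it was 1 higher, miR-212-3p at 0.32 ± 0.12, and 3 lower, miR-138-5p at -0.47 ± 0.18, miR-7a-5p at -0.64 ± 0.24 and miR-7b at -0.55 ± 0.23. Over all tested miRNAs it was 39 of 469 (8.32%). In MK-801 against VEH, 7 lay higher and 10 lower (median -0.013, beside -0.018 for all), and 13 lay higher with upper-quartile scaling. In MK-801+CLO against VEH, 10 lay higher and 7 lower (median 0.014, beside 0.003 for all), and 8 lay higher with upper-quartile scaling. In both of these, 0 of 17 passed in edgeR. At an unadjusted p under 0.05, MK-801 against VEH had 1 higher and 0 lower, beside 24 of 469 miRNAs (5.12%). MK-801+CLO against VEH had 2 higher and 2 lower, beside 70 of 469 (14.9%).

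MiR-128-3p was set against the geometric mean count of the 16 of these miRNAs at 10 CPM or more. It was 15.5, 15.5 and 13.8 times that mean in VEH, 12.1, 13.9 and 14.8 times in MK-801, and 19.6, 16.7 and 20.5 times in MK-801+CLO. On this measure every MK-801+CLO library, replicate 2 included, lay above the 6 other libraries. MiR-128-3p itself was not raised in that replicate, at 15518 CPM beside 15565 CPM in MK-801 replicate 3. Its higher ratio, 16.7 against 14.8, thus reflects a lower mean of the list in MK-801+CLO replicate 2. The log2 difference was 0.48 from MK-801 and 0.34 from VEH, each with an exact permutation p of 0.1, the smallest possible. With the median of the list in place of its mean the difference from MK-801 was 0.27 (exact permutation p = 0.1), and that from VEH was 0.26 (exact permutation p = 0.200). Full separation gives 0.1, so with the median the MK-801+CLO and VEH libraries overlapped. How many other miRNAs separate from the list in this way was not counted. Between MK-801 and VEH the difference was -0.14 (exact permutation p = 0.300), or -0.01 with the median of the list (exact permutation p = 1).

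MiR-27b-3p, whose seed overlaps that of miR-128-3p, was more abundant in 8 of 9 libraries. The ratio of miR-128-3p to miR-27b-3p was 0.627, 0.752 and 0.577 in VEH and 0.529, 0.589 and 0.535 in MK-801. In MK-801+CLO it was 1.01, 0.510 and 0.868, so that this group held both the highest and the lowest library. The difference from MK-801 was 0.47 on the log2 scale (exact permutation p = 0.400). MiR-27b-3p itself was at -0.04 ± 0.11 in MK-801+CLO against MK-801, 0.13 ± 0.11 in MK-801 against VEH and 0.09 ± 0.11 in MK-801+CLO against VEH. MiR-27a-3p, far scarcer, was at 572 ± 34.3 CPM in VEH, 580 ± 31.4 CPM in MK-801 and 626 ± 7.87 CPM in MK-801+CLO.

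**Figure D3:**
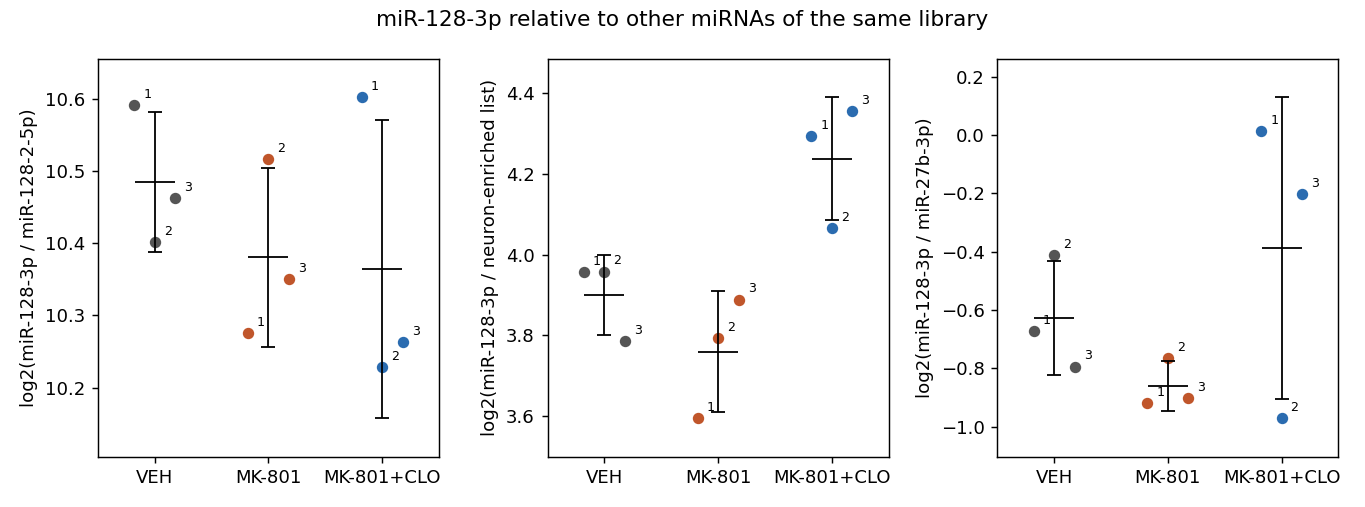
Log2 ratio of the miR-128-3p count to that of miR-128-2-5p, to the geometric mean of 16 neuron-enriched miRNAs and to miR-27b-3p, by group. Each point is 1 library with its replicate number, and the bars in black give the mean ± SD (n = 3), on axes that do not start at 0. Against the neuron-enriched list the MK-801+CLO libraries lie above the others, and against miR-27b-3p their replicate 2 is the lowest library.

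The hippocampus holds other cell types, and the levels of miRNAs that mark them differed in part between the groups. In bulk tissue, fewer cells of a type and less RNA per cell cannot be told apart. The summed level of 5 vascular miRNAs ran from 25684 to 30249 CPM in MK-801+CLO, against 22715 to 24167 CPM in MK-801 and 21841 to 25141 CPM in VEH. Of 6 microglia and leukocyte miRNAs the sum ran from 912 to 1131 CPM in MK-801+CLO, 804 to 837 CPM in MK-801 and 801 to 957 CPM in VEH. These sums rest largely on 1 miRNA each. MiR-143-3p, of smooth muscle, made up 72.7% to 76.5% of the vascular sum, and the other 4 summed to 6192 to 7137 CPM in MK-801+CLO and 5881 to 6607 CPM in MK-801, which overlap. MiR-150-5p, of lymphocytes, made up 86.9% to 90.9% of the microglia and leukocyte sum, and the other 5 summed to 86.2 to 113 CPM in MK-801+CLO and 95.7 to 109 CPM in MK-801. Among those 5, miR-142-3p was at -0.26 ± 0.17 and miR-142-5p at -0.12 ± 0.10 in MK-801+CLO against MK-801. The rest went the other way, miR-146a-5p at 0.21 ± 0.27, miR-223-3p at 0.17 ± 0.33 and miR-155-5p at 0.16 ± 0.22. Of 7 choroid plexus and ciliated-cell miRNAs it ran from 2413 to 3681 CPM in MK-801+CLO, 3496 to 4180 CPM in MK-801 and 3730 to 10491 CPM in VEH. Oligodendrocyte miRNAs (4) and red blood cell miRNAs (4) had overlapping sums, at 4314 to 6506 CPM against 4342 to 7342 CPM and at 2973 to 3268 CPM against 2710 to 3091 CPM in MK-801+CLO and MK-801. The 17 neuron-enriched miRNAs summed to 113715 to 126779 CPM in MK-801+CLO, 120593 to 144645 CPM in MK-801 and 122850 to 125742 CPM in VEH. These other sums also rest largely on 1 miRNA each. MiR-9a-5p made up 62.8% to 71% of the neuron-enriched sum and miR-486 98.4% to 98.9% of the red blood cell sum. MiR-338-3p made up 52.4% to 65.6% of the oligodendrocyte sum. MiR-204-5p made up 63% to 81.8% of the choroid plexus and ciliated-cell sum, with 8583 of the 10491 CPM in VEH replicate 3. Against MK-801, 4 of 5 vascular, 4 of 6 microglia and leukocyte and 4 of 4 red blood cell miRNAs were at a positive log2 fold change in MK-801+CLO, and 3 of 4 oligodendrocyte and 6 of 7 choroid plexus and ciliated-cell miRNAs at a negative one. The medians were 0.16, 0.16, 0.23, -0.23 and -0.58, beside -0.004 for all tested miRNAs, and edgeR called 0 of them at an adjusted p of 0.05. With upper-quartile scaling 3 of 5 vascular miRNAs were positive and 4 of 4 oligodendrocyte miRNAs negative. None of the listed miRNAs was at 0 in any library. The part of these cell types in the miR-128 values was not tested.

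The levels of 331 other tested miRNAs at 10 CPM or more were set beside that of miR-128-3p over the 9 libraries, by the Pearson correlation r of TMM-scaled log2 CPM (prior count 2). The libraries share groups and the miRNAs within them share depth, so this describes these libraries. The 5 most alike were miR-211-5p, hosted by the channel gene Trpm1 (r = 0.93, Spearman's rho 0.92), miR-212-3p (r = 0.92, rho 0.82), miR-132-5p (r = 0.92, rho 0.80), miR-132-3p (r = 0.90, rho 0.62) and miR-128-2-5p (r = 0.86, rho 0.75). MiR-211-5p is on the choroid plexus and ciliated-cell list, as its 1 member of 7 at a positive log2 fold change in MK-801+CLO against MK-801 (0.74 ± 0.17). MiR-132 and miR-212 come from 1 cluster that CREB induces in active neurons. The second 5p product, miR-128-1-5p, ranked 56th of 331 (r = 0.53, rho 0.48).

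These likenesses rested largely on MK-801+CLO replicates 1 and 3, the libraries farthest from the median of miR-128-3p. Over the other 7 libraries r was 0.62 for miR-211-5p, 0.56 for miR-212-3p, 0.45 for miR-132-5p, 0.29 for miR-132-3p, 0.53 for miR-128-2-5p and -0.20 for miR-128-1-5p. With group means removed, r over the 9 libraries was 0.88 for miR-211-5p, 0.93 for miR-132-3p and 0.70 for miR-128-2-5p. For these the spread within groups therefore carried the likeness as well. For miR-128-1-5p it carried little, as r fell from 0.53 to 0.24. MiR-132-3p, for example, was at 2429 and 2582 CPM in MK-801+CLO replicates 1 and 3 and at 1574 CPM in replicate 2. The least alike were miR-193a-3p (r = -0.90, rho -0.75), miR-449a-5p (r = -0.86, rho -0.65) and miR-34b-3p (r = -0.85, rho -0.53), of which the latter pair belong to a family known from ciliated cells. Over the 7 libraries these were at -0.78, -0.63 and -0.23. MiR-449a-5p and miR-34b-3p are on the same marker list as miR-211-5p, the most alike. MiR-34b-3p was at 10.7 and 7.97 CPM in MK-801+CLO replicates 1 and 3 and at 20.4 CPM in replicate 2.

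**Figure D4:**
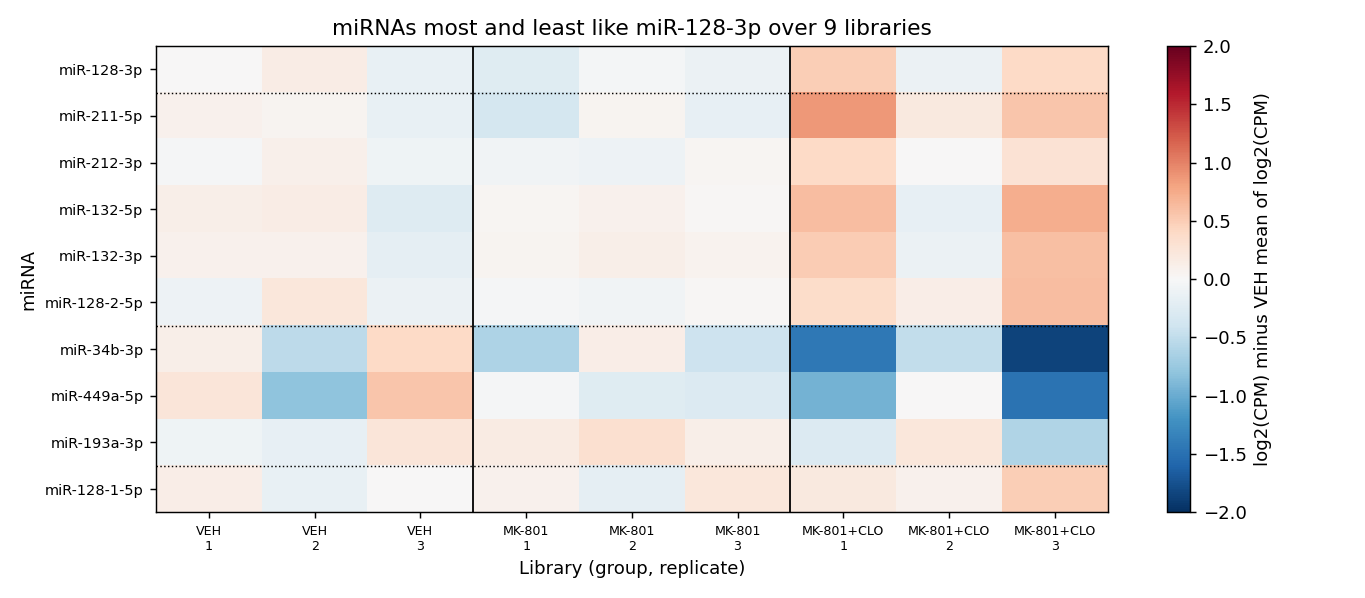
Log2 CPM of miR-128-3p (top row), the 5 miRNAs most like it, the 3 least like it and miR-128-1-5p (bottom row) in each of the 9 libraries, as the difference from the VEH mean (colour scale), from CPM without TMM scaling. MK-801+CLO replicates 1 and 3 lie above the VEH mean (red) for miR-128-3p and the 5 most alike. They lie below it (blue) for the 3 least alike, and some of these cells are pale. Replicate 2 is pale in most rows, and light blue for miR-34b-3p.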

How the data were processed

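Small RNA was sequenced from rat hippocampus in 9 libraries, with groups and replicate numbers from the titles. The authors deposited whole-number counts per miRNA and values headed TPM. These deposited values equal CPM, with no length term (largest relative difference 0.000473%). The deposited lengths of the sequences are a further column, in bases ("Length"). Cutadapt 1.14, Bowtie, DESeq and build Rnor_6.0 are named, without roles, per the submitters' processing notes. The treatment of multiply matching reads is not given in the sources used. A total of 21 blank lines were dropped and 1 split name was rejoined. Library totals ran from 10665718 to 18284905 counts, and a count of 0 allows up to 0.281 CPM (3 counts). No libraries of 1 group agreed within sampling noise.

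Counts were tested with edgeR 4.0.16 (R 4.3.3; filterByExpr, TMM, glmQLFit and glmQLFTest on all 9 libraries, 1 mean per group), with Benjamini-Hochberg adjustment over 469 miRNAs at 0.05. SE is the absolute log2 fold change over the square root of F. Ratios were compared by two-sided exact permutation tests. The ratios to miR-128-1-5p and miR-27b-3p, and that between 5p products, were added after seeing the data. Alternatives were DESeq2 1.42.0, limma voom 3.58.1, other scalings and filters, the replicate block, the compared libraries alone and each library left out. The code was tested on simulated data. Named miRNAs are the members, the listed marker miRNAs, the 5 most and 3 least like miR-128-3p by r of TMM-scaled log2 CPM, and the neighbours in rank. The members and lists were chosen with earlier results of these data known.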

Additional observations from a re-analysis of the deposited data

How the results depend on the processing

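The log2 fold changes of miR-128-3p kept their direction under all alternatives run, and 1 call changed. In MK-801+CLO against MK-801 they ran from 0.35 to 0.60 with 1 library left out (adjusted p from 0.0487 to 0.943), the highest and past the threshold being 0.60 without MK-801+CLO replicate 2, and from 0.32 to 0.46 under the other settings. In MK-801+CLO against VEH they ran from 0.22 to 0.47 and from 0.27 to 0.34, and in MK-801 against VEH from -0.18 to -0.04 and from -0.13 to -0.02. The number of miRNAs called, 0 in each comparison, was 1, 2 and 16 with DESeq2 for MK-801 against VEH, MK-801+CLO against MK-801 and MK-801+CLO against VEH, and 0 to 1, 0 to 2 and 0 to 7 with 1 library left out. MiR-128-2-5p in MK-801 against VEH turned to 0.0051 with limma voom, 0.089 with upper-quartile factors, 0.016 at 10 CPM or more, and 0.11 and 0.053 without replicate 2 of VEH and of MK-801 (range over libraries -0.076 to 0.11). MiR-128-1-5p in that comparison turned to -0.044 without MK-801 replicate 3 (range over libraries -0.044 to 0.21). The log2 ratio of miR-128-3p to miR-128-2-5p in MK-801+CLO against MK-801 ran from -0.13 to 0.053 with 1 library left out. It turned to 0.053 without replicate 2 of either group and to 0.035 without MK-801+CLO replicate 3. That to miR-128-1-5p in MK-801+CLO against VEH ran from -0.15 to 0.14, and turned to 0.14 without VEH replicate 2, 0.09 without MK-801+CLO replicate 2 and 0.04 without its replicate 3. The ratio of the 5p products ran from -0.12 to 0.19 in MK-801 against VEH, where it was negative when VEH replicate 2 or MK-801 replicate 3 was left out. It ran from -0.30 to 0.0035 in MK-801+CLO against VEH, the highest being without VEH replicate 1. The cause of these turns was not tested. With the replicate number as a block, edgeR called 0 miRNAs in each comparison and miR-128-3p was at -0.12, 0.44 and 0.32 in the order above. Same-numbered libraries correlated at -0.584 to 0.309 in their deviations from group means, so the numbers were not treated as a pairing. Depth limits miR-128-2-5p, at 138 to 244 counts per library.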
